A study of Mus musculus with 6 samples.

Results

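The genes described here are 50 genes of G2 phase and mitosis, among them the cyclins and regulators of Cdk1, the mitotic kinases, the spindle checkpoint, mitotic kinesins, kinetochore proteins and condensin. They were chosen by gene symbol from textbook roles, with earlier results of these data known. Of the 50, 49 had a probe set among the 19938 genes measured. Ccnb1, which encodes cyclin B1, had no probe set carrying its symbol alone and was not analysed here. The cells came from a 129SVEV mouse embryonic stem cell line in which GFP had been knocked in behind an IRES at Ctip2 (Bcl11b), with the neomycin cassette still present, so that GFP follows transcription of this zinc finger factor of deep layer cortical neurons. Whether the line was 1 clone is not given in the sources used here. All groups were grown as floating aggregates (SFEBq) and had received SB-431542, a TGF-beta receptor inhibitor, and WNT-C59, a WNT inhibitor, early in differentiation. CTIP2:GFP+ cells and CTIP2:GFP- cells were sorted on day 11, day 12 and day 13, and the total RNA of each fraction was hybridised to 1 GeneChip Mouse Gene 1.0 ST array, 6 arrays in all. Each fraction thus had 3 arrays from consecutive days, not repeated cultures of 1 day. The p-values rest on how the difference varied from day to day, with the spread of each gene drawn towards that of all genes.

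Cdk1 bound to its cyclins drives cells from G2 into mitosis, and the phosphatases of the Cdc25 family release its brake. Polo-like and Aurora kinases then build the spindle, the checkpoint holds anaphase until kinetochores are attached, and the anaphase-promoting complex (APC/C) with Cdc20 ends mitosis by destroying cyclins. Transcripts of these genes peak together late in the cycle and are low in cells that have left it. In the developing cortex, dividing radial glia and intermediate progenitors carry them, while neurons are postmitotic.

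Late cell cycle genes share promoter elements, the CHR (cell cycle genes homology region) and the CCAAT box bound by NF-Y, which were looked for in the promoter windows of RefSeq on GRCm38.p6, from 250 bases before to 50 bases after each annotated start. Windows were found for 41 of the 50 genes, 44 in all. Aurkb, Ccna2, Cdc25c, Cdca2, Foxm1, Incenp, Kif20a, Smc4 and Tpx2 had none in the table. On both strands the CHR was searched in 3 spellings, of which TTTGAA is the usual one. The variant TTCGAA was searched with it. The last spelling was TTTAAA. The CCAAT box was searched by its own letters. Any CHR spelling stood in 39 of the 44 windows (88.6%), against 28.8% of all 32851 windows and 26.5% of the 21263 windows of protein-coding genes. TTTGAA alone stood in 77.3% of the windows, against 17.9% of all windows. CCAAT stood in 79.5%, against 37.4%. Both elements stood in 34 windows (77.3%), against 11.3% of all windows, and neither stood in 4. Within 50 bases of the start, a distance chosen after the matches were seen, a CHR spelling stood in 77.3% of the windows and in 8.62% of all windows. A match is a description of letters and not a binding site.

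**Figure D1:**
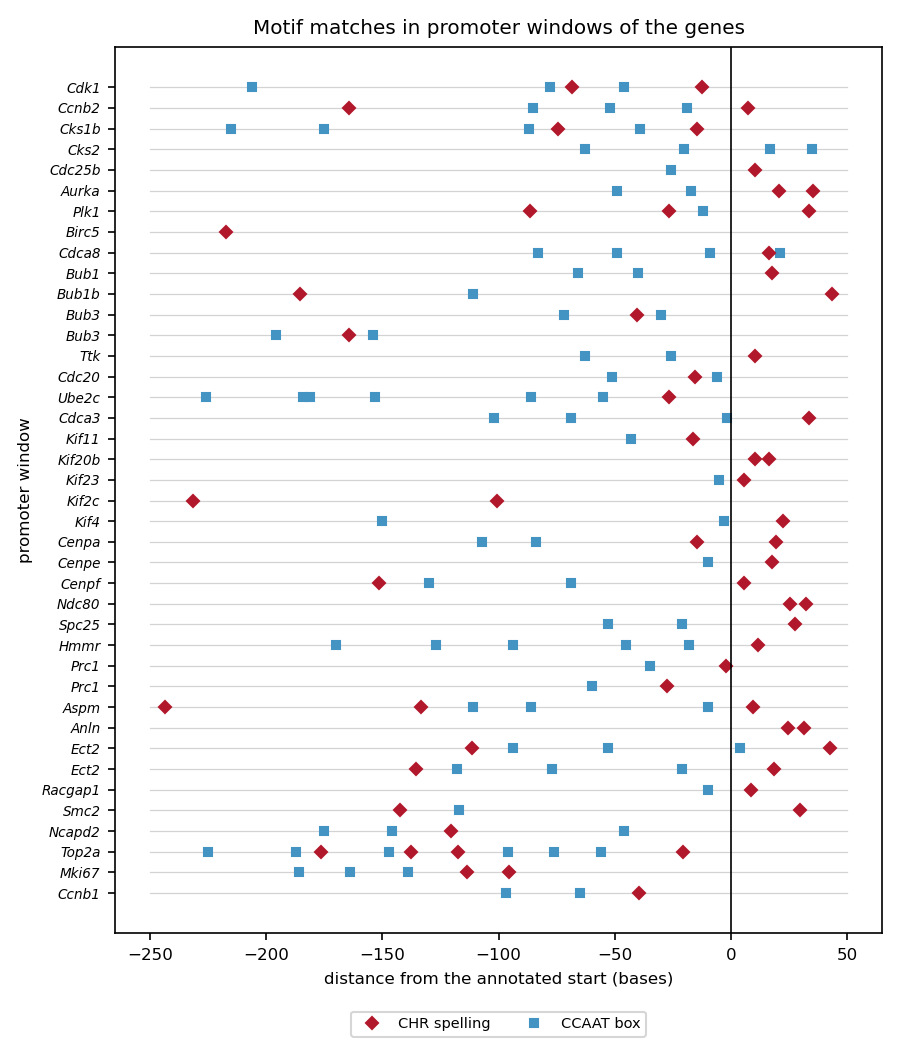
Positions of CHR spellings (red diamonds) and CCAAT boxes (blue squares) in the promoter windows of the G2 and mitosis genes, 1 line per window, with the distance from the annotated start in bases on the horizontal axis. The 40 windows with at least 1 match are drawn, and the CHR spellings gather around the start in most of them.

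The following stretches run 5′ to 3′ from 130 bases before the start to 30 bases after it, with CHR spellings and CCAAT boxes of either strand in capitals. Cdc25b, Cdca8 and Cks2 are shown because they passed the test between the fractions, Bub1 because it came nearest to it among the others, Cdc20 and Cdk1 as textbook genes of mitosis, and Ncapd2 because its mean did not differ between the fractions beyond the error.
Cdc25b, chr2:131186818-131186977, plus strand: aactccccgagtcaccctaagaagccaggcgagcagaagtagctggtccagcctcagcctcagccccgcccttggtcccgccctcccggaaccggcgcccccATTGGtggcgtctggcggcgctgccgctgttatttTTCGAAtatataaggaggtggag
Cdca8, chr4:124936888-124937047, minus strand: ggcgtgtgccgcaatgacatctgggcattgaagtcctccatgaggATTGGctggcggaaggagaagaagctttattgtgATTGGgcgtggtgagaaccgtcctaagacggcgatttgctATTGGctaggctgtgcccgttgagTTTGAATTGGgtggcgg
Cks2, chr13:51645102-51645261, plus strand: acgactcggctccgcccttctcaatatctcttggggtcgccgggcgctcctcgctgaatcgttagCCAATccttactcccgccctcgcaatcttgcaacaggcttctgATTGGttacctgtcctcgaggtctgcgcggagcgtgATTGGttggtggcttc
Bub1, chr2:127831830-127831989, minus strand: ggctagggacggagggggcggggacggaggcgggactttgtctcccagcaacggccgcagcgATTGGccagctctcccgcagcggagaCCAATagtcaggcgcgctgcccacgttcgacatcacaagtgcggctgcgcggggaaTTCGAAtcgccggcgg
Cdc20, chr4:118437314-118437473, minus strand: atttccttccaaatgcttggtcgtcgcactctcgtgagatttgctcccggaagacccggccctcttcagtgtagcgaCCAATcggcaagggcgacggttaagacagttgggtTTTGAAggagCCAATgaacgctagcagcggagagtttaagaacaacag
Cdk1, chr10:69352883-69353042, minus strand: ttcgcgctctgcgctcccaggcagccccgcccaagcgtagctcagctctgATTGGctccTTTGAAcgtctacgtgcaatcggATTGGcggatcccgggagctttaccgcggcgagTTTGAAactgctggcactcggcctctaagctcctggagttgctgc
Ncapd2, chr6:125191557-125191716, minus strand: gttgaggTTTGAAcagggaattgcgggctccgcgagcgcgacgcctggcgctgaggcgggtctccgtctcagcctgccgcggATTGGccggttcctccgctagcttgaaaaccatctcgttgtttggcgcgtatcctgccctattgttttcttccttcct
In Cdc25b the CHR spelling lay 8 to 13 bases into the transcript and in Bub1 it lay at bases 15 to 20, counting the start base as 1. In Cdca8 it lay at bases 14 to 19 and overlapped a CCAAT box on the other strand. In Cdc20 it ended 13 bases before the start. The Cks2 window held 4 CCAAT boxes and no CHR spelling, and the stretch shown holds 3 of them. Ncapd2 carried both elements too, with the CHR spelling at positions -123 to -118 from the start. The window of Ccnb1 also held a CHR spelling and CCAAT boxes.

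The 6 arrays were compared before the results. The signals are the log2 values made by the authors with RMA16, and they ran from 4.15 to 13.1 with a median of 5.41. The day 13 GFP- array stood apart: the standard deviation of its values was 1.11, against 1.29 to 1.48 on the other arrays, and its Pearson correlation with the others across probe sets was 0.863 to 0.927. Bcl11b, the gene that carries the reporter, had signals of 8.76, 7.91 and 8.54 in GFP+ cells and 6.44, 6.27 and 6.88 in GFP- cells on day 11, day 12 and day 13 (difference 1.87, limma adjusted p = 0.025), so the fractions followed their labels. Of 10 radial glia markers, 6 were lower in GFP+ cells past the test and none higher, and their mean log2 signal was 7.44 to 7.99 in GFP+ cells and 8.78 to 9.31 in GFP- cells. Of 12 neuron markers, 2 were higher and none lower, with means of 9.03 to 9.41 in GFP+ cells and 7.45 to 8.57 in GFP- cells. Of 8 telencephalic and cortical progenitor markers, 2 (Nes and Hes5, both also on the radial glia list) were lower. Their mean was 6.27 to 6.60 in GFP+ cells and 6.91 to 7.39 in GFP- cells. On every array between 6 and 8 of them lay above 5.41, the median of all signals. Neither fraction lacked neuron markers, since all 12 lay above that median on all 6 arrays. In bulk RNA, fewer cycling cells and less RNA of these genes per cell cannot be told apart. The part of the marker shifts in the results below was not tested.

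Nearly all G2 and mitosis genes had lower mean signals in CTIP2:GFP+ cells than in CTIP2:GFP- cells of the same days, most by less than 2-fold. Averaged over the 3 days, GFP+ minus GFP- was below 0 for 48 of the 49 genes, with a median of -0.68 on the log2 scale (quartiles -0.85 and -0.57, range -1.42 to 0.02), while the median over all genes was -0.05. In limma, paired by day and adjusted by Benjamini-Hochberg over all 19938 genes, Cdc25b, Cks2 and Cdca8 were lower at an adjusted p under 0.05, 3 of 49 genes or 6.12%, where 0.567% of all genes were called lower. No gene of the list was higher, where 0.797% of all genes were. At an unadjusted p under 0.05, 38 of the 49 were lower and none higher. By that measure 5.96% of all genes were lower, and 1910 of the 19938 were higher. At the adjusted threshold, 113 of all genes were called lower and 159 higher, and quantile normalization of the deposited values gave 99 and 52. The calls of the list rested on the days and the scaling. None was made without day 13, where 0 of all genes passed in either direction. Without day 12 there were 7, the 3 among them, and without day 11 there were 2, Cdc25b and Cenpa, with Cks2 and Cdca8 no longer past the test. Over all genes, 229 were lower and 930 higher without day 12, and 171 and 381 without day 11. There were none with the arrays centred on their medians, where 0 of all genes passed too, and 1 (Cdc25b) after quantile normalization. A common median and interquartile range called 12, where 224 of all genes were lower and 236 higher. Removing dim signals called 10 or 17, where 244 or 337 genes were lower. A trended and robust eBayes called 19, where 510 were lower. With the day ignored there were none, where 41 of all genes were lower and 84 higher. When any single array was then left out there were 0 or 1, where 0 to 114 of all genes were lower. The median of the list stayed between -0.88 and -0.47 over all these settings and with any single array left out.

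The ranges showed the same shift without a test. All 3 GFP+ signals lay below all 3 GFP- signals in 30 of the 49 genes (61.2%), as they did in 7.85% of all genes. GFP+ was lower on all 3 days in 39 genes (79.6%), against 21.4% of all genes. Over 2-fold lower on average were 6 genes, namely Cdc25b, Mki67, Plk1, Cenpf, Cks2 and Ccna2, against 1.02% of all genes. There were 3 without day 11, 16 without day 13 and 1 to 13 without a single array, and 2 with the arrays centred on their medians. None was over 2-fold higher, against 1.97% of all genes.

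**Figure D2:**
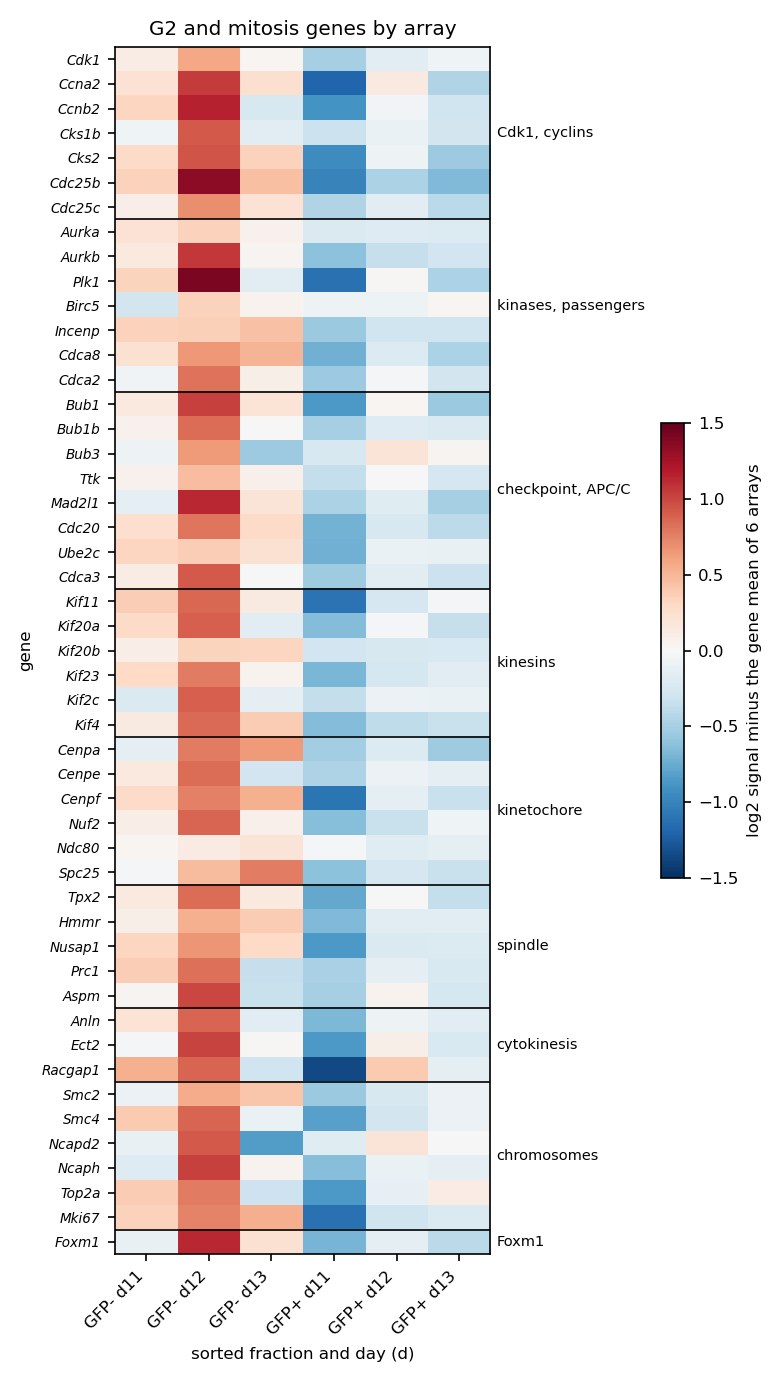
Log2 signal of the 49 G2 and mitosis genes on each of the 6 arrays, as the difference from the mean of each gene over the arrays, with genes in rows ordered by role and GFP- arrays left of GFP+ arrays (d, day). The GFP- array of day 12 is the highest for most genes and the GFP+ array of day 11 the lowest.

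Among Cdk1, its cyclins and regulators, 2 of 7 genes were lower past the test and the median difference was -0.83. Cdc25b encodes the phosphatase that first activates Cdk1 at the entry into mitosis, and its promoter stretch is the first shown above. Its signals were 6.32, 6.85 and 6.66 in GFP+ cells and 7.67, 8.66 and 7.77 in GFP- cells on day 11, day 12 and day 13. Every GFP+ array lay below every GFP- array, and the gene was 2.68-fold lower (difference -1.42, standard error 0.18, limma adjusted p = 0.034). Cks2, a small subunit that binds Cdk1, had 5.06, 5.93 and 5.46 in GFP+ cells and 6.29, 6.95 and 6.35 in GFP- cells. Its ranges did not overlap either, and it was 2.06-fold lower (standard error 0.15, adjusted p = 0.044). The other 2 probe sets that carry the symbol Cks2 gave differences of -0.98 and -0.99, and whether all 3 detect the same transcript was not tested. Cdk1 itself had 5.52, 5.86 and 5.95 in GFP+ cells and 6.13, 6.60 and 6.05 in GFP- cells. The GFP- value of day 13 lay close to the GFP+ values, and the difference of -0.48 (95% interval -0.92 to -0.05) did not pass (adjusted p = 0.27). Ccna2, cyclin A2, had daily differences of -1.41, -0.91 and -0.70 (adjusted p = 0.068), and Ccnb2, cyclin B2, a mean difference of -0.83 (adjusted p = 0.21). Cdc25c and Cks1b, relatives of the genes that passed, differed by -0.68 and -0.47.

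Of the mitotic kinases and the chromosomal passenger complex, which corrects wrong attachments and guides cytokinesis, 1 of 7 genes was lower past the test and the median difference was -0.77. Cdca8 encodes borealin, a subunit of that complex. Its signals were 5.01, 5.52 and 5.24 in GFP+ cells and 5.95, 6.37 and 6.24 in GFP- cells. The daily differences were -0.95, -0.85 and -0.99, close to each other, and the gene was 1.91-fold lower (standard error 0.13, adjusted p = 0.045). The other subunits differed among themselves. Incenp, the scaffold, differed by -0.77 (adjusted p = 0.069) and Aurkb, the kinase, by -0.83 (adjusted p = 0.16), whereas Birc5, survivin, differed by -0.08 with a 95% interval of -0.50 to 0.34. Plk1, polo-like kinase, had 6.28, 7.41 and 6.92 in GFP+ cells and 7.73, 8.81 and 7.24 in GFP- cells. Its ranges overlapped, since GFP+ on day 12 exceeded GFP- on day 13, and the 2.07-fold lower mean did not pass (adjusted p = 0.12). Aurka, the centrosomal Aurora kinase, had 5.78, 5.81 and 5.79 in GFP+ cells and 6.21, 6.35 and 6.06 in GFP- cells. The ranges did not overlap but the difference was small at -0.42 (adjusted p = 0.24). Cdca2, which recruits a phosphatase to chromatin, differed by -0.57.

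None of the 8 genes of the spindle checkpoint and the APC/C passed, and 7 of them had GFP+ ranges wholly below GFP-. Bub1, a checkpoint kinase at kinetochores, had 5.19, 6.08 and 5.49 in GFP+ cells and 6.19, 7.08 and 6.26 in GFP- cells. The groups did not overlap, and the difference of -0.92 missed the threshold narrowly (standard error 0.14, adjusted p = 0.0501). Cdc20, the activator of the APC/C, had 6.13, 6.59 and 6.44 in GFP+ cells and 7.08, 7.64 and 7.12 in GFP- cells, again apart from each other (difference -0.90, adjusted p = 0.059). Mad2l1 (Mad2), which holds Cdc20 inactive, differed by -0.78, Bub1b (BubR1) by -0.60, the kinase Ttk (Mps1) by -0.41, Cdca3 by -0.68 and Ube2c, the ubiquitin-conjugating enzyme of the APC/C, by -0.62. Bub3 was the exception, with a mean difference of -0.01 and a 95% interval from -0.56 to 0.54. Its GFP+ signal was lower on day 11 and day 12 and higher on day 13.

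None of the 6 kinesins passed either, with a median of -0.71. Kif11 (Eg5), the motor that pushes spindle poles apart, had 6.04, 6.89 and 7.13 in GFP+ cells and 7.52, 8.01 and 7.29 in GFP- cells. The groups were far apart on day 11 and nearly met on day 13, with daily differences of -1.48, -1.11 and -0.15, and the mean difference of -0.92 had an adjusted p of 0.18. Kif4 differed by -0.91 (adjusted p = 0.066), Kif23 by -0.75, Kif20a by -0.68, Kif20b by -0.51 and Kif2c, which depolymerises microtubules at centromeres, by -0.36. Among 6 centromere and kinetochore genes the median was -0.75 and none passed. Cenpf, a large kinetochore protein, had 5.42, 6.38 and 6.19 in GFP+ cells and 6.81, 7.28 and 7.06 in GFP- cells. The groups did not overlap, and it was 2.07-fold lower at an adjusted p of 0.054. Cenpa, the centromeric histone, and Spc25, of the Ndc80 complex, differed by -0.85 and -0.81. In both the daily difference was widest on day 13 (-1.18 and -1.11), opposite to the order of most genes of the list. Nuf2 differed by -0.70, Cenpe by -0.46 and Ndc80 by -0.23 (95% interval -0.58 to 0.12), although Nuf2, Ndc80 and Spc25 belong to the same complex.

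Of the 5 spindle and midzone genes and the 3 cytokinesis genes none passed. Nusap1, which bundles spindle microtubules, had 6.25, 6.90 and 6.90 in GFP+ cells and 7.44, 7.77 and 7.40 in GFP- cells. The groups lay apart, with a difference of -0.85 (adjusted p = 0.091). Tpx2, which activates Aurora A, differed by -0.76, Hmmr by -0.66, Prc1 of the midzone by -0.57 and Aspm, which holds spindle poles together and is mutated in microcephaly, by -0.47. Racgap1, of the centralspindlin complex that places the cleavage furrow, had 6.84, 8.58 and 8.04 in GFP+ cells and 8.73, 9.06 and 7.89 in GFP- cells. Its daily differences of -1.89, -0.48 and 0.16 were the most spread of the list, and the mean of -0.74 did not pass (standard error 0.38, adjusted p = 0.44). Ect2, the exchange factor that Racgap1 binds, and Anln (anillin) differed by -0.67 and -0.62.

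Among the 6 genes of condensin, topoisomerase and the chromosome surface the median was -0.59 and none passed. Mki67, whose product Ki-67 coats mitotic chromosomes and marks cycling cells, had 7.13, 7.95 and 8.03 in GFP+ cells and 8.59, 8.99 and 8.79 in GFP- cells. The groups did not overlap, and the gene was 2.13-fold lower (standard error 0.18, adjusted p = 0.058). Top2a, which untangles sister chromatids, had 5.55, 6.28 and 6.52 in GFP+ cells and 6.79, 7.19 and 6.10 in GFP- cells. The fractions changed order on day 13, and the difference of -0.58 did not pass (adjusted p = 0.49). A dimmer probe set of Top2a gave -0.18. The condensin subunits Smc4, Smc2 and Ncaph differed by -0.78, -0.59 and -0.59, and Ncapd2 by 0.02 with a 95% interval from -0.72 to 0.76, so that its mean could neither be called different nor shown to be equal. Foxm1, the forkhead factor that activates many of these genes, had 5.86, 6.41 and 6.14 in GFP+ cells and 6.44, 7.68 and 6.78 in GFP- cells. Its ranges did not overlap but nearly met, at 6.41 and 6.44, and the difference was -0.83 (limma adjusted p = 0.11).

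**Figure D3:**
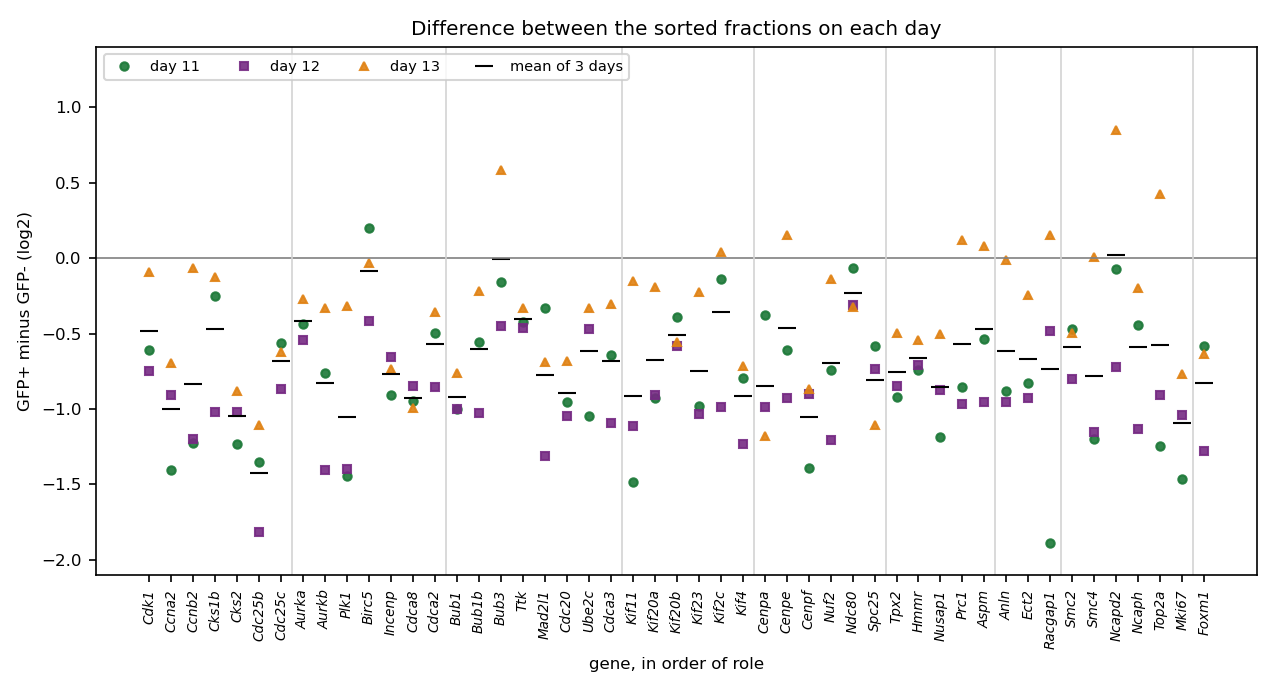
GFP+ minus GFP- log2 signal of each of the 49 genes on day 11 (green circles), day 12 (purple squares) and day 13 (orange triangles), with the mean of the 3 days as a black dash and grey lines between role groups. All points of day 12 lie below 0, while 9 points of day 13 and 1 of day 11 lie above it.

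The median difference of the list was smallest on day 13. On day 11, 48 of the 49 genes were lower in GFP+ cells (51.6% of all genes), on day 12 all 49 (51.3%) and on day 13 40 (56%). The median differences of the list were -0.76, -0.93 and -0.32 on day 11, day 12 and day 13, while those of all genes were -0.01, -0.005 and -0.07. Over 2-fold lower on a single day were 13, 18 and 3 genes, where 1.3%, 2.43% and 2.29% of all genes were. This order turned on the scaling, with 18, 8 and 13 genes after quantile normalization and 17, 7 and 10 at a common interquartile range. In 38 genes (77.6%) the day 13 difference was above both others, against 38.7% of all genes. Lower on day 11 and day 12 but higher on day 13 were 9 genes (18.4%), against 8.79% of all genes. These shares differ in how many genes could turn. Of the list, 48 genes were lower on both earlier days, of which 39 stayed lower and 9 turned. Over all genes 4272 stayed lower and 1753 turned, so the larger share of the list is not an excess of reversals. The change of the difference with the day, fitted in limma as fraction by day with 1 residual degree of freedom, passed for 0 of the 49 genes and for 7 of all genes (0.0351%). At an unadjusted p under 0.05 it rose in 6 of the genes, where 3.68% of all genes did, and fell in none, where 1.43% did. It was 1.02 per day in Racgap1 (limma adjusted p = 0.17) and 0.83 per day in Top2a (adjusted p = 0.44). In this fit all 49 genes had the same standard error, 0.27, so their p-values followed the size of the change alone. The small difference of day 13 coincided with the GFP- array that stood apart and turned on the scaling: the day 13 median was -0.17 with the arrays centred on their medians, where 34 genes were lower and 15 higher, and -0.57 after quantile normalization and -0.55 after scaling to the same interquartile range, where 40 were lower and 9 higher. On that array the neuron markers had a mean of 7.45, against 8.49 and 8.57 on the other GFP- arrays, and the 7 pluripotent cell markers a mean of 5.50, against 4.94 and 4.71, with 3 of them above the median signal. The radial glia markers did not move with it (9.01, against 8.78 and 9.31). The part of these shifts in the day 13 values was not tested.

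In both fractions the level of the list was highest on day 12. The median signal of the 49 genes was 5.56, 6.06 and 5.83 in GFP+ cells and 6.26, 7.08 and 6.33 in GFP- cells on day 11, day 12 and day 13. In GFP- cells 46 genes had their highest signal on day 12 (93.9%), against 39.6% of all genes, and in GFP+ cells 33 had (67.3%), against 31.2%. Both fractions peaked on day 12 in 32 genes, against 23.7% of all genes. The GFP+ signal was lowest on day 11 in 46 genes, against 24.4% of all genes. Day 12 exceeded the mean of the other days by 0.50 in the median over the genes (range -0.04 to 1.07). This contrast was chosen after the pattern was seen, and in limma 0 of the 49 and 0 of all genes passed it. At an unadjusted p under 0.05, 25 of the 49 were higher on day 12, where 10.5% of all genes were. Without the day 13 GFP- array the count was 25 too, where 14.3% of all genes were higher, while 0 of the 49 passed and 1 of all genes did (0.00502%). A straight slope over the days passed for 0 of the 49 and 0 of all genes, and at an unadjusted p under 0.05 1 of the 49 was higher later, where 0.291% of all genes were, and none lower, where 0.582% were. With 1 array per fraction and day, a day and its culture or sort cannot be told apart. Both day 12 arrays also had the widest spread of signals in their fraction. The standard deviation was 1.452 for GFP+, beside 1.378 (day 11) and 1.374 (day 13). For GFP- it was 1.485, beside 1.293 and 1.11. The shares of all genes were not matched for brightness. After median centring, quantile normalization or a common interquartile range, 0 of the 49 passed the day 12 contrast too. Since 0 had passed before, these counts cannot show whether the day 12 level turned on the scaling. The part of the wider spread in the day 12 level was not tested.

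**Figure D4:**
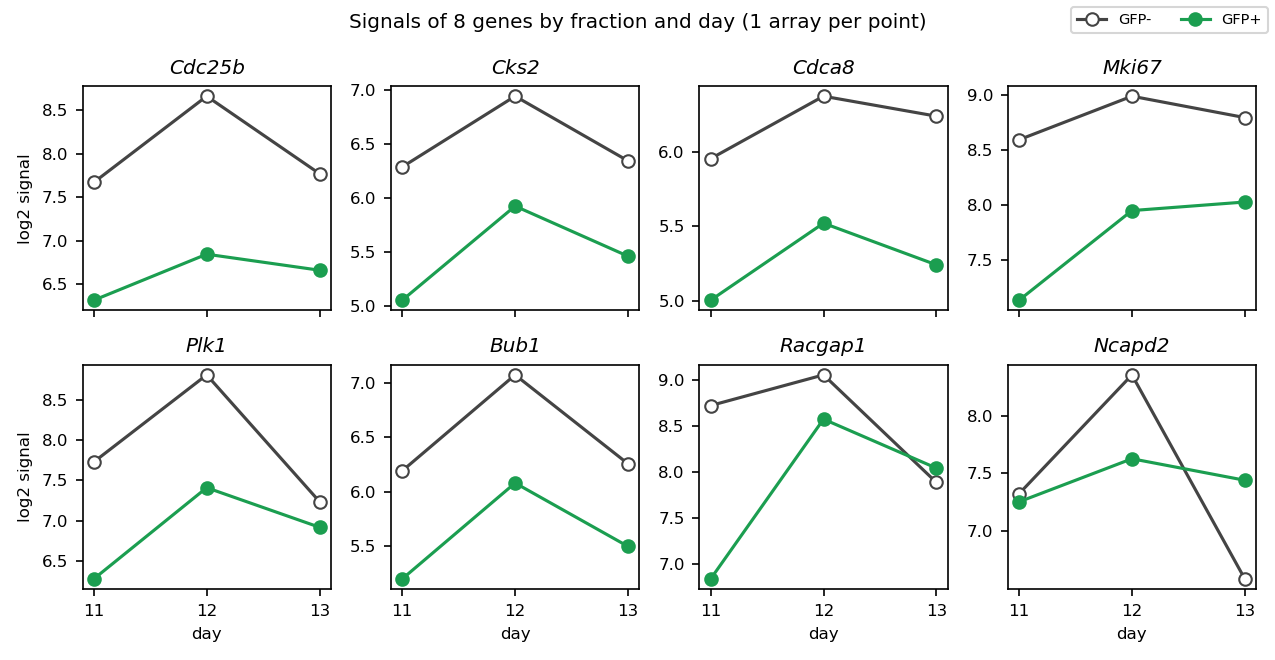
Log2 signal of 8 G2 and mitosis genes on day 11, day 12 and day 13 in GFP+ (green) and GFP- cells (open circles), 1 array per point, with vertical axes that differ between panels and do not start at 0. Cdc25b, Cks2, Cdca8, Mki67, Plk1 and Bub1 lie lower in GFP+ cells on each day, whereas the fractions of Racgap1 and Ncapd2 change order on day 13.

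The genes of the list moved together over the 6 arrays. The Pearson correlation of each gene with the mean of the other 48 was 0.94 in the median and at most 0.99 (Tpx2). It was lowest for Ncapd2 (0.51), Ndc80 (0.57), Bub3 (0.58) and Birc5 (0.59). Ndc80 and Birc5 were dim, with mean signals at percentiles 40.1 and 47.6 of the probe sets. Those of Ncapd2 and Bub3 lay at 88.3 and 84.5. The points share the fractions, the days and the array scaling, so these are descriptions. The 5 other genes whose profile was most like the mean of the list over the 6 arrays were Pea15a (r = 0.996), Smtnl2 (0.996), Knstrn (0.996), Mtrf1 (0.995) and Rcn1 (0.995).

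Other lists of cell cycle genes had median differences nearer to 0, while of their genes only Ccnd1 differed by more than any of the 49. Of 78 further G2 and mitosis genes, 69 were measured, 0 passed, 36 were lower and 1 was higher at an unadjusted p under 0.05, and the median difference was -0.42. The largest differences were -1.17 for Knstrn, of the spindle and kinetochore (limma adjusted p = 0.051), -0.87 for Knl1 and -0.83 for Kif18a. Of 66 measured genes of G1, S phase and replication, 2 were lower past the test, Ccnd1 (cyclin D1, 3.52-fold lower, difference -1.81, adjusted p = 0.025) and E2f1, a factor of S phase entry (difference -1.07, standard error 0.16), and the median was -0.32. E2f8 differed by -1.14 (adjusted p = 0.052). Of 25 measured inhibitors and genes of cell cycle exit, 1 was higher, Cdk5r1 (difference 1.20, adjusted p = 0.045), whose product activates the neuronal kinase Cdk5 and does not stop the cycle. Ndn (necdin) had a difference of 1.31 and the Cdk inhibitor Cdkn1c (p57) of -1.29, neither past the test, and the list's median was -0.18. Of 28 measured genes of the APC/C core, cohesin and separase, many of which are also expressed outside dividing cells, 0 passed, with 4 lower and 2 higher at an unadjusted p under 0.05, and the median was 0.18. Fbxo5 (Emi1), an inhibitor of the APC/C, had the largest of these at -0.93, while the APC/C subunits Anapc5 and Cdc27 had 0.91 and 0.73. Over all 19938 genes, 5.96% were lower and 1910 genes were higher at an unadjusted p under 0.05. The medians of the lists are descriptions, and the difference between lists was not tested. The lists were not matched for brightness. The median GFP- signals on day 11, day 12 and day 13 were 6.26, 7.08 and 6.33 for the 49 genes. They were 5.72, 6.28 and 5.87 for the further G2 and mitosis genes and 6.21, 6.78 and 6.04 for the G1 and S phase list. For the inhibitors they were 6.70, 7.05 and 6.45, and for the APC/C list 6.57, 7.20 and 6.34.

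The marker lists are set beside these values. The radial glia markers had a median difference of -1.32, with -1.31, -1.31 and -1.28 on day 11, day 12 and day 13. Slc1a3, the glutamate transporter of radial glia, was 6.57-fold lower in GFP+ cells (difference -2.72, adjusted p = 0.024). The neuron markers had a median of 1.03, with 0.74, 0.82 and 1.65 on the 3 days. Of the 12, 9 were higher in GFP+ cells on all 3 days, 3 were lower on day 11, and the lowest mean difference was -0.25. Syt1, a synaptic vesicle protein, was 5.06-fold higher (difference 2.34, adjusted p = 0.028). The 7 pluripotent cell markers had a median of -0.25 with 0 past the test.

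**Figure D5:**
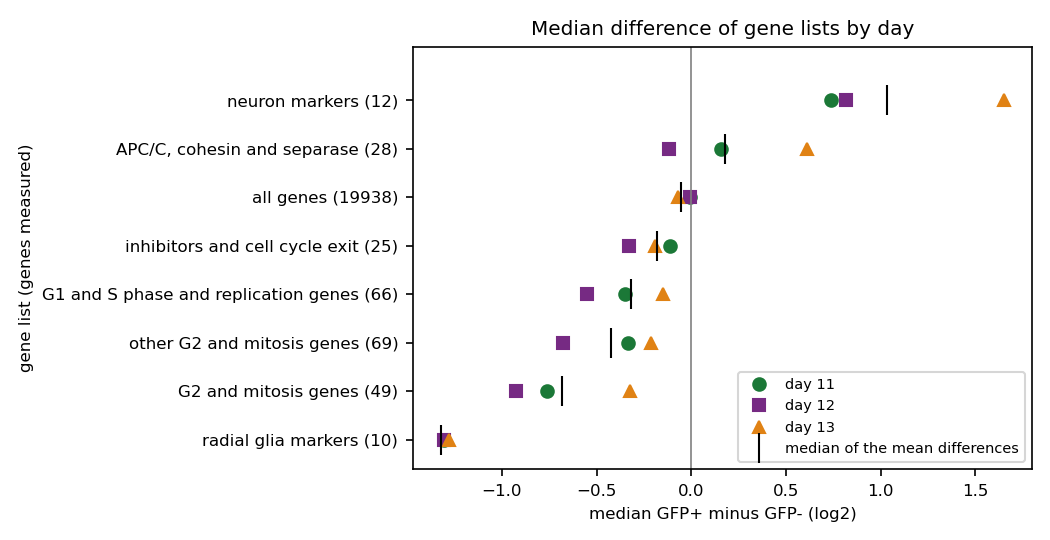
Median GFP+ minus GFP- log2 difference of 8 gene lists on day 11, day 12 and day 13 (circles, squares, triangles) and of the mean over the days (black bars), with the number of genes measured in brackets. The 49 G2 and mitosis genes lie between the radial glia markers and the other cell cycle lists, and their day 13 point lies nearest to 0.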

How the data were processed

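The authors hybridised total RNA of the sorted fractions to GeneChip Mouse Gene 1.0 ST arrays and deposited log2 signals of the probe sets, made with RMA16 in GeneSpring. Whether all arrays were normalized together is not given in the sources used here. Of 28853 probe sets, 21789 carried 1 gene symbol, 1621 several and 5443 none. Each of the 19938 genes was represented by its probe set with the highest mean, with no filter on dim signals. The number of arrays limits the precision.

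GFP+ and GFP- cells were compared in R 4.3.3 with limma 3.58.1 (lmFit and eBayes, a term for the fraction and one for each day, 2 residual degrees of freedom) and Benjamini-Hochberg adjustment over all genes at a threshold of 0.05. Its intervals are 95% intervals from the moderated standard errors, not adjusted for the number of genes. The pairing by day comes from the labels, and with the fraction means removed, the pair of arrays from day 11 correlated at 0.112, that of day 12 at 0.558 and that of day 13 at 0.368 over the genes. The script was tested on simulated data. The genes and lists were chosen with earlier results of these data known, and a day 12 contrast and the day 11 and day 12 values alone were added after seeing the data. Signals on all arrays are given for genes past the test, the largest difference of each role group and textbook marks of mitosis, and up to 3 genes of each other list by size or those that passed. Promoter windows came from RefSeq on GRCm38.p6. Alternatives were a fit ignoring day, leaving out days or arrays, median centring, quantile normalization and a common interquartile range. Averaged probe sets, removal of dim signals and a trended and robust eBayes were others. The last was Student's t-test, which the paper names for other experiments and not in its microarray section.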

Additional observations from a re-analysis of the deposited data

Results flagged for a closer look

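Of all genes, 4272 were lower in GFP+ cells on all 3 days. A further 1753 (8.79%) were lower on day 11 and day 12 and higher on day 13. Of the 49 genes, 39 were lower on all 3 days and 9 (18.4%) turned in this way, so their larger share is not an excess of reversals. The day 13 differences on the log2 scale were 0.851 for Ncapd2, 0.582 for Bub3, 0.423 for Top2a, 0.156 for Racgap1, 0.154 for Cenpe, 0.119 for Prc1, 0.08 for Aspm, 0.0432 for Kif2c and 0.00679 for Smc4. Birc5 had the opposite sign on day 11, at 0.2, against lower GFP+ signals on day 12 and day 13. With 1 array per fraction and day, none of these reversals could be tested on its own, and the fraction by day term passed in limma for 0 of the 49 genes at an adjusted p under 0.05 and was above 0 for 6 at an unadjusted p under 0.05, as it was in 3.68% of all genes. The day 13 signs of Racgap1 and Smc4 turned negative after quantile normalization and after scaling to the same interquartile range, where those of Birc5 and Anln turned positive.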

How the results depend on the processing

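Among the 49 genes, 3 were lower and 0 higher in the reported fit, with 113 genes lower and 159 higher in all. With no replicate block (day ignored), 0 of the 49, 41 genes lower and 84 higher passed. Median centring called 0 of the 49, 0 genes lower and 0 higher, and left 2 of the 49 over 2-fold lower, in place of 6. Quantile normalization called 1, with 52 genes higher and 11 of the 49 over 2-fold lower, and a common median and interquartile range called 12, with 224 genes lower. Signals over the 20th percentile gave 10, with 244 and 424 genes, and means over the median gave 17, with 337 and 693. A trended and robust eBayes gave 19, with 510 and 549. The paper names Student's t-test for its in vitro and in vivo experiments, and its microarray section states no test. Applied to the arrays, that t-test gave 0, 0 and 0 after adjustment and 17, 790 and 966 at an unadjusted p under 0.05. The filters and the trended fit change how many genes are tested or how the spread is shared, and the other causes were not tested. Leaving out 1 day or 1 array gave 0 to 7 of the 49, 0 to 229 genes lower, 0 to 930 higher and 1 to 16 of the 49 over 2-fold lower. The count was 0 without day 13, where 0 of all genes passed, 2 without day 11 and 7 without day 12. Without any one array, with no day term, it was 0 or 1. The median difference of the list kept its direction under all of these settings, at -0.88 to -0.47, and under these settings the sign of the mean difference changed for Birc5, Bub3, Kif2c and Ncapd2, none of them past the test, and for no other gene of the list. With 2 residual degrees of freedom and 1 array per fraction and day, a gene that missed the threshold was not shown to be equal.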
